A study of Homo sapiens with 3 samples.

Results

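The peaks described here are those that YBX1 immunoprecipitation gave on the end of the short arm of chromosome 9 that carries JAK2, in the 2 lists deposited for the human erythroleukaemia line HEL. Members are the peaks on chromosome 9 that end at or below 20 Mb (hg19), and they were set against the peaks on the same chromosome that start beyond 30 Mb. Replicate 1 had 245 of its 22874 peaks on the segment and replicate 2 had 173 of 17285, whereas the rest of chromosome 9 held 649 and 477. The series holds 3 libraries, all from untreated HEL cells with mutated JAK2: 2 YBX1 immunoprecipitations and 1 input of sheared chromatin, against which both were called. After removal of duplicates 10010819 tags were left in replicate 1, 9926271 in replicate 2 and 74780414 in the input. Nothing in the labels ties the replicates to separate cultures, so their spread may be technical. HEL is 1 clonal line, so the values describe that line only. The segment was picked on the peaks of these same lists, and its density, folds, tags and repeats are therefore given as a description, with no test.

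YBX1 carries a cold-shock domain, binds single-stranded RNA and DNA, and was first known for binding the Y-box, a promoter element with the core CCAAT. JAK2 is the tyrosine kinase through which the receptors for erythropoietin and thrombopoietin signal, and HEL cells are known to carry extra copies of the mutated gene. The caller reports a peak as a fold over a local background, which is the highest of a genome-wide level and the scaled input around the peak. Input rises with the amount of DNA, so sequence present in more copies has both a higher input and more tags in an immunoprecipitation.

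The promoter windows of RLN2, which encodes the peptide hormone relaxin-2, are shown because RLN2 carried the strongest promoter region of the segment. Both come from RefSeq on GRCh38.p14, on the minus strand of chromosome 9 and written 5′ to 3′. Capitals mark CCAAT or its reverse complement ATTGG, also where matches overlap.
RLN2 start 1 (5304179 to 5304478): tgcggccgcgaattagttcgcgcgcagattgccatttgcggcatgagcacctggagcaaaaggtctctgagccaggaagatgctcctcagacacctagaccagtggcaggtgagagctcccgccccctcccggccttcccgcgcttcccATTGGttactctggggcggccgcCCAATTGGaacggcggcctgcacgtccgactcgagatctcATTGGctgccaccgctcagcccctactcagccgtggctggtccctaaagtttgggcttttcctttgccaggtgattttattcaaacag
RLN2 start 2 (5304667 to 5304966): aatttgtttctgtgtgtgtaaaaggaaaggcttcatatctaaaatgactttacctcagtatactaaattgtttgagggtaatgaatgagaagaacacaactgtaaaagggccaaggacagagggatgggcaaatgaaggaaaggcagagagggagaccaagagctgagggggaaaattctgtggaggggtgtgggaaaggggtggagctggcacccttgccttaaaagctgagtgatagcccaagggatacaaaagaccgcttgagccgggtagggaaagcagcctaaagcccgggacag
The first window holds 4 matches and the second 0, and 34.6% of the 35116 promoter windows of that table hold at least 1 on either strand. The run GATAGATA or its reverse complement TATCTATC, a stretch of the commonest repeat under the peaks, is in 0 of the RLN2 windows and in 0.296% of all windows. Peaks and windows are on different builds and were not placed against each other.

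The segment was dense in peaks outside tandem repeats and sparse in peaks on them. Replicate 1 had 12.2 peaks per Mb on the segment and 7.29 on the rest of chromosome 9, counted over the 89 bins of 1 Mb with a peak in either list. Replicate 2 had 8.65 on the segment and 5.36 on the rest. The ratio averaged 1.65 ± 0.05 (SD, n = 2), and against all other chromosomes but Y it averaged 1.47 ± 0.07. Both ratios depend on the caller's threshold: with peaks at p of at most 1e-10 they were 1.04 and 0.986, so at that cutoff the segment was about as dense as the rest. The p-value is taken over the local background, so 1 cutoff asks for more tags where that background is higher.

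Peaks outside simple tandem repeats stood at 10 per Mb on the segment and 2.64 on the rest of chromosome 9 in replicate 1, and at 6.7 and 1.44 in replicate 2, a ratio of 4.22 ± 0.62 (SD, n = 2). Peaks on tandem repeats went the other way. They stood at 2.25 per Mb on the segment and 4.65 on the rest in replicate 1, and at 1.95 and 3.92 in replicate 2, a ratio of 0.49 ± 0.01. Tandem repeats accordingly made up 18.4% of the peaks on the segment (95% Wilson interval 14% to 23.7%) and 63.8% on the rest (60% to 67.4%) in replicate 1. In replicate 2 it was 22.5% (17% to 29.3%) on the segment and 73.2% (69% to 76.9%) on the rest. On other chromosomes the share averaged 54.5% over the replicates. Against them the density ratio of the segment was 2.57 ± 0.09 outside tandem repeats and 0.548 ± 0.001 on them (SD, n = 2). Wilson intervals cover counting error only, since peaks of 1 library share that library.

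**Figure D1:**
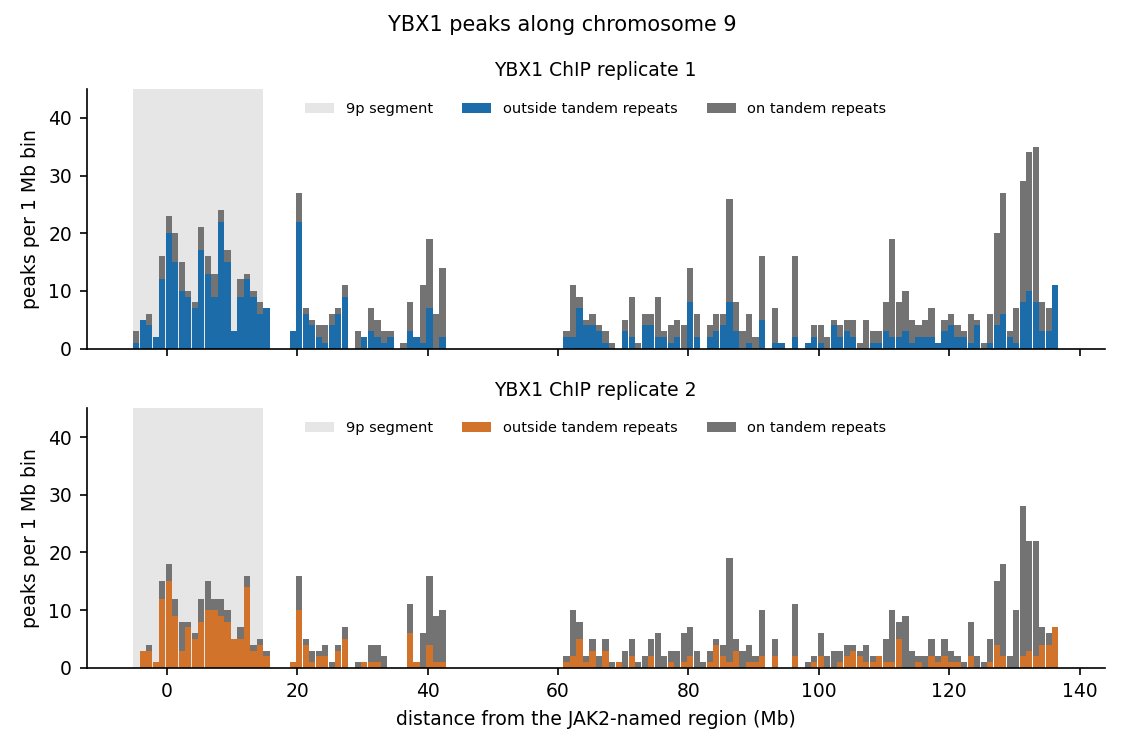
Peaks per 1 Mb bin along chromosome 9 in each YBX1 replicate, with distance in Mb from the region named for JAK2 on the x axis and peaks on tandem repeats in grey. Bars of the shaded segment are mostly coloured, that is outside tandem repeats, whereas those of the rest are mostly grey.

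The caller's local background was raised along almost the whole segment. It was worked out for each peak from its tags, width and p-value, and is given as a multiple of the genome-wide level. Taken with the fold, it gave a whole number of tags at the summit, within 0.05, for 94.3% of the segment's replicate 1 peaks and 94.2% of its replicate 2 peaks, and only those peaks are used for it. The median local background was 3.56 on the segment and 1.00 on the rest of chromosome 9 in replicate 1, and 3.68 and 1.00 in replicate 2. It reached 1.5 or more for 229 of 231 segment peaks and 63 of 617 peaks of the rest in replicate 1, and for 163 of 163 and 45 of 453 in replicate 2. A level of 1 is the floor of this measure. Both replicates divide by the same input, so their agreement on it is not independent: 86 of 99 shared regions had values within 5% of each other.

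The local background moved in steps along the segment. In the first Mb both peaks with a value, in an intron of DOCK8, were at 1.00. From 1 to 4 Mb replicate 1 had a median of 2.49 and replicate 2 one of 2.60. From 5 to 6 Mb, the stretch with JAK2, it was 5.02 in both. From 6 to 11 Mb, with KDM4C and PTPRD, it was 2.44 and 2.51. From 11 to 15 Mb it was 4.45 and 4.40, with 5.07 and 5.09 between 13 and 14 Mb. From 15 to 19 Mb it was 3.55 and 3.57, and in the last Mb 2.32 and 2.14. The JAK2 stretch and the one near 13 Mb thus stood highest, with lower sequence between them.

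**Figure D2:**
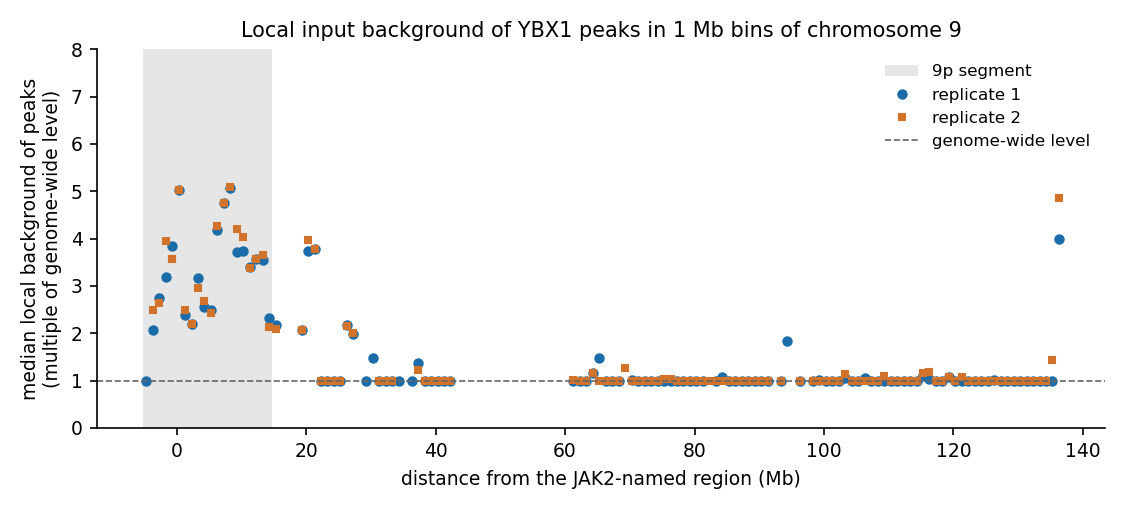
Median local background of the peaks in each 1 Mb bin of chromosome 9, as a multiple of the genome-wide level (dashed), by distance in Mb from the region named for JAK2. Bins of the shaded segment lie between 2.06 and 5.09, apart from the first at 1.00, while most bins of the rest lie at 1.00.

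Peaks followed the steps only in part. The stretch from 5 to 6 Mb held 23 peaks in replicate 1 and 18 in replicate 2, and that from 13 to 14 Mb held 24 and 12. The stretch from 1 to 4 Mb held 13 and 8, or 4.33 and 2.67 per Mb. Over the 20 bins, peaks outside tandem repeats and the median local background had a Spearman rho of 0.42 in replicate 1 and 0.57 in replicate 2. For peaks on tandem repeats rho was -0.04 and 0.25. These are descriptions over bins that share libraries and the input. Whether the number of DNA copies sets the density of peaks was not tested.

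Fold enrichment was lower on the segment than on the rest of chromosome 9, while tag counts were not. The fold of each peak is the authors' own. Its median was 22.0 on the segment and 67.4 on the rest of chromosome 9 in replicate 1, and 20.6 and 59.3 in replicate 2. The middle 50% of folds ran from 17.5 to 31.1 on the segment and from 49.5 to 80.9 on the rest in replicate 1. The median tags per peak were 10 on the segment in both replicates, and 9 and 8 on the rest. The median summit height was 6 tags on the segment and 5 on the rest in replicate 1, and 5 on both in replicate 2. Peaks with 5 tags, the fewest in the lists, made up 7.35% of the segment and 20.8% of the rest in replicate 1, and 8.67% and 21.6% in replicate 2. A peak over a higher local background needs more tags to pass the caller's p-value cutoff. The background tags expected in a peak had a median of 0.997 on the segment and 0.275 on the rest, averaged over the replicates. Tag counts of called peaks, and the share with 5 tags, are therefore no like measure of occupancy on both sides. Within the repeat classes the tags of called peaks were higher on the segment. On tandem repeats the median was 23 tags on the segment and 11 on the rest in replicate 1, and 22 and 9 in replicate 2. Outside them it was 9 and 6 in replicate 1, and 8 and 6 in replicate 2.

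In ranges of local background, the folds of the segment were near those of other chromosomes from 2 to 4 and above them from 4 to 10. This grouping was chosen after the values were seen, and peaks of other chromosomes above 10 were left out. The range from 4 to 10 is not a like background on both sides. Values on the segment ended at 6.56 in replicate 1 and 6.02 in replicate 2, while those elsewhere could reach 10. How far this shapes the fold and tandem repeat share in that range was not tested. At a local background from 2 to 3, the median fold was 26.6 on the segment (60 peaks) and 26.9 on other chromosomes (1296 peaks) in replicate 1, and 24.3 and 27.2 in replicate 2. From 3 to 4 it was 20.4 and 21.4 in replicate 1, and 20.3 and 19.5 in replicate 2. From 4 to 10 it was 18.5 on the segment and 13.3 elsewhere in replicate 1, and 18.8 and 12.8 in replicate 2. The share on tandem repeats was 21.7% on the segment and 35.5% on other chromosomes from 2 to 3 in replicate 1, and 20% and 45.8% in replicate 2. In the range from 4 to 10 the tandem repeat share was 17.3% on the segment and 8.3% elsewhere in replicate 1, and 18% and 7.05% in replicate 2. On other chromosomes it was 59.1% below a local background of 1.1 in replicate 1 and lower in each range above, whereas on the segment it lay between 15.8% and 24.6% in the 3 ranges from 2 to 10.

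Among 134 windows of 20 Mb with at least 20 peaks in both lists, the segment ranked 10 and 15 in number of peaks, and 3 and 5 in peaks outside tandem repeats, in replicates 1 and 2. Its median local background was the highest of the windows in replicate 1, where the next was 2.06 on chromosome 21, and ranked 3 in replicate 2, where the highest was 6.66 on chromosome 8. Its median fold was the lowest of the windows in replicate 1 and ranked 2 from the lowest in replicate 2. Its tandem repeat share ranked 3 and 4 from the lowest in replicates 1 and 2. The lowest share was on chromosome 22, at 12.1% and 18.2%.

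The repeat classes of the segment were mixed. In replicate 1, 112 of 245 peaks had no annotated repeat, 45 lay on tandem repeats, 43 on LINE, 19 on LTR, 16 on SINE and 7 on DNA transposons. In replicate 2 the counts among 173 peaks were 65, 39, 30, 21, 9 and 6. Each of these 5 classes outside tandem repeats was denser on the segment than on the rest of chromosome 9 in both replicates. The few remaining peaks varied: low-complexity sequence held 0.15 peaks per Mb on the segment and 0.0337 on the rest in replicate 1, and 0.05 and 0.0562 in replicate 2. CpG islands held 0 and 0.0562 in replicate 1, and 0.05 and 0.0112 in replicate 2. Peaks without an annotated repeat stood at 5.6 per Mb on the segment and 1.28 on the rest in replicate 1, and at 3.25 and 0.685 in replicate 2. LINE peaks stood at 2.15 and 0.663 in replicate 1, and at 1.5 and 0.315 in replicate 2. Of the LINE peaks on the segment, 28 and 20 lay on the family L1, and 14 and 10 on the older L2. ERVL elements, remnants of endogenous retroviruses, held 10 and 13 peaks on the segment, against 9 and 7 on the longer rest of the chromosome.

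**Figure D3:**
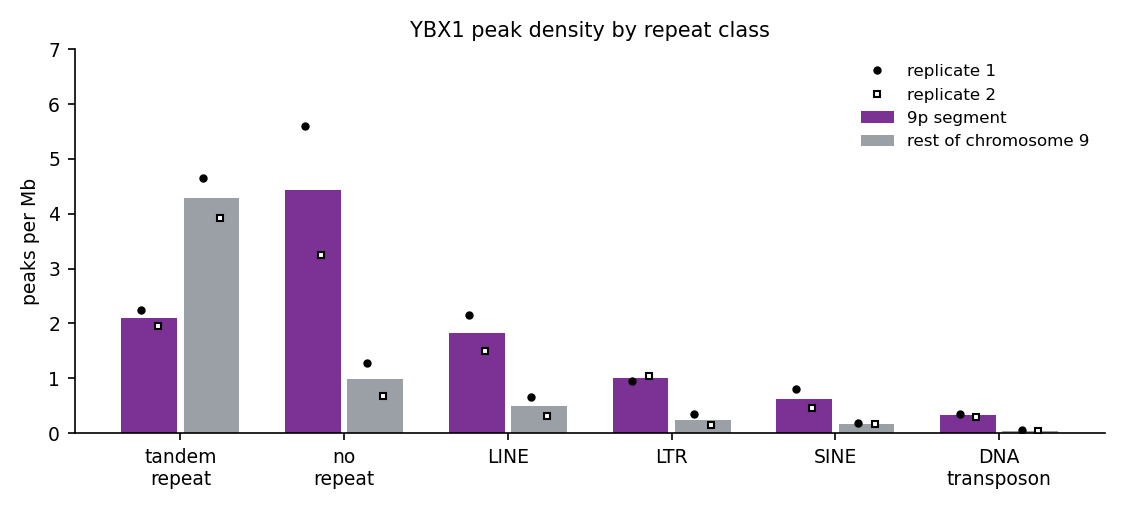
Peaks per Mb by annotated repeat class on the 9p segment (purple) and on the rest of chromosome 9 (grey), with bars for the mean of the replicates and points for each. The grey bar is the taller for tandem repeats, and the purple bar is the taller for the 5 other classes drawn.

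The tetranucleotide units AGAT and ATCC made up most tandem repeat peaks. The unit AGAT, with its rotations and reverse complement, had 25 peaks on the segment in replicate 1 and 26 in replicate 2, or 1.25 and 1.3 per Mb, against 1.8 and 1.56 on the rest. ATCC had 10 and 7, or 0.5 and 0.35 per Mb, against 2.51 and 2.06 on the rest. The AGAT density of the segment was thus nearer to that of the rest, at a ratio of 0.76 ± 0.10, than the ATCC density was, at 0.18 ± 0.02 (SD, n = 2). AGAT peaks held more tags on the segment, under the same limit of the p-value cutoff. Their median was 28 tags on the segment and 13 on the rest in replicate 1, and 29.5 and 10 in replicate 2. Their median fold was nevertheless 58.4 on the segment and 94.4 on the rest in replicate 1, and 52.1 and 68 in replicate 2. Of the AGAT peaks on the segment, 17 and 15 were annotated as TCTA and 8 and 11 as TAGA.

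By position, 125 of the replicate 1 peaks on the segment were intergenic, 112 intronic, 6 in promoters and 2 in exons. In replicate 2 the counts were 92, 72, 6 and 3. The intergenic share was 51% on the segment (95% Wilson interval 44.8% to 57.2%) and 60.4% on the rest (56.6% to 64.1%) in replicate 1, and 53.2% (45.8% to 60.5%) and 61.6% (57.2% to 65.9%) in replicate 2. Peaks without a tandem repeat label can lie beside one: 25.5% of them on the segment and 47.2% on the rest had a tandem repeat peak within 500 bp in replicate 1, and 25.4% and 43% in replicate 2.

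On the segment, 49.4% of the replicate 1 peaks had a replicate 2 peak overlapping by at least 1 bp (95% Wilson interval 43.2% to 55.6%), against 57.2% on the rest of chromosome 9. In the other direction 71.7% of its replicate 2 peaks were met by one of replicate 1 (64.5% to 77.9%), against 82% on the rest. Over all listed peaks the shares were 54% and 77.6%, both inside the intervals of the segment, so its shares were near the background. Within the repeat classes the order was not the same. Tandem repeat peaks were found again in 75.6% of cases on the segment and 72% on the rest in replicate 1, and in 92.3% and 91.4% in replicate 2. Other peaks were found again in 43.5% on the segment and 31.1% on the rest in replicate 1, and in 65.7% and 56.2% in replicate 2. On other chromosomes the mean over the replicates was 81.1% for tandem repeat peaks and 47.3% for other peaks. On the segment these means were 83.9% and 54.6%.

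The overlapping peaks merged into 108 shared regions at 80 places at least 500 bp apart. The repeat label and position of a region are those of its strongest replicate 1 peak, and the replicate 2 label can differ. Of the regions, 34 (31.5%, 95% Wilson interval 23.5% to 40.7%) lay on tandem repeats, against 269 of 335 (80.3%, 75.7% to 84.2%) on the rest of chromosome 9. A further 41 had no repeat label, 14 lay on LINE, 9 on LTR, 6 on SINE and 3 on DNA transposons. The median fold of the regions was 29.3 in replicate 1 and 24.7 in replicate 2, against 80.9 and 68 on the rest, with median tags of 18 and 12 against 13 and 9. Over the 108 regions the folds of the replicates had a Spearman rho of 0.79. A fold above 100 in both replicates was reached by 1 of the 108 regions of the segment (0.926%) and by 34 of the 335 of the rest (10.1%). Over all 10895 shared regions the share was 14.4%. The folds are taken over a local background that was higher on the segment.

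**Figure D4:**
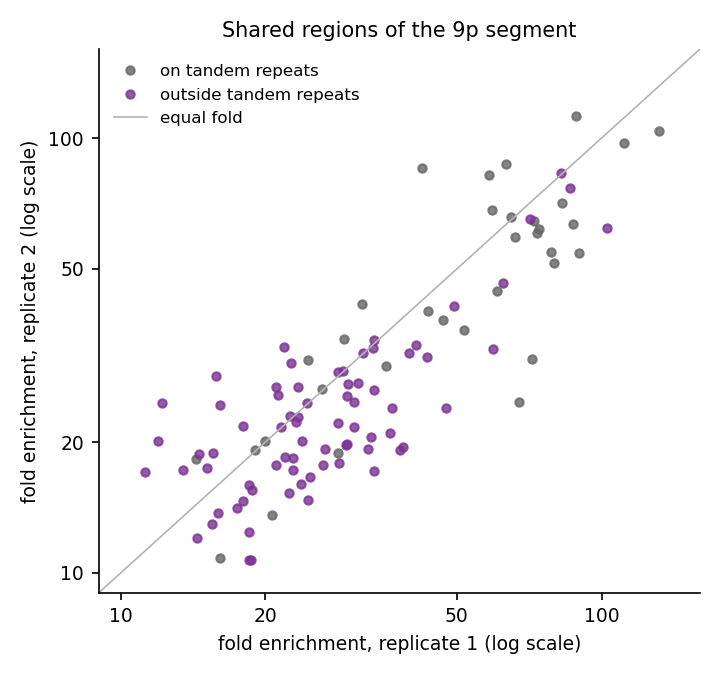
Fold enrichment of the 108 shared regions of the segment in replicate 1 (x) and replicate 2 (y), on log scales, with regions on tandem repeats in grey. Only 1 region exceeds 100 in both replicates, and most purple points lie below 50.

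The strongest shared region by the lower of its folds lay beyond KDM4C, which encodes a demethylase of histone H3 lysine 9. This intergenic TCCA repeat (7194881 to 7195330) held 164 tags at a fold of 131 in replicate 1 and 135 tags at 104 in replicate 2, at a local background of 1.95 and 1.97. Second was a TAGA repeat near ZDHHC21, the gene of a palmitoyltransferase (14558781 to 14559501), at folds of 111 and 97.6. Next was a TCTA repeat in an intron of CNTLN, which encodes a centrosomal protein (17274392 to 17274529), at 88.6 and 113. These leading regions were tandem repeats, as were 7 of the 10 strongest.

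The 3 others of these 10 had no tandem repeat label in replicate 1. An intergenic region near FREM1, a gene of the extracellular matrix (14944405 to 14944774), had 114 tags in replicate 1 and 60 in the strongest replicate 2 peak, with folds of 82.4 and 83.1. An MLT2B3 element of the ERVL family with no gene named (11968755 to 11969130) had 139 and 78 tags and folds of 85.9 and 76.7. An unlabelled region with no gene named (11938129 to 11938732) had folds of 71.1 and 65.3. The remaining 4 were a TGGA repeat with no gene named from 2327190 to 2327803 (64.7 and 65.7), a TAGA repeat of PTPRD from 10016351 to 10016444 (82.9 and 70.8), a TCTA repeat of PTPRD from 8373813 to 8373924 (72.3 and 64.4), and a TCTA repeat near SLC1A1, a glutamate transporter gene, from 4437365 to 4437484 (87.4 and 63.4).

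JAK2 itself held 1 peak, in an intron on an L1ME3 element (5059208 to 5059277), with 12 tags and a fold of 18.2 in replicate 1 and none listed in replicate 2. Its summit height was 7 tags at a local background of 5.17. Beyond the gene, the annotation named JAK2 together with INSL4 and INSL6 for 2 intergenic regions found in both replicates. The nearer (5189584 to 5189661) had 13 tags in replicate 1 and 8 in replicate 2, with folds of 18.5 and 16. The farther (5200271 to 5200797), which is also named for RLN2, was made of 2 peaks in each list, with 106 and 37 tags in replicate 1 and 21 and 82 in replicate 2. Its strongest peaks had folds of 62.4 and 46.5 over a local background of 4.97 and 4.98. Their summits held 23 tags in replicate 1 and 17 in replicate 2, far above the median height of the segment, and no repeat was annotated there.

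Of the 8 genes in the group of JAK2 and its immune and hormone neighbours, 5 had a peak in the gene in replicate 1 and 3 in replicate 2, and 3 had a shared region there. Over the segment, 21 of the 53 genes named for any peak had a shared region in the gene. That share leaves out genes named for no peak, which some of the gene lists below include. The share of all genes of the segment with a peak was not worked out, so the counts per list show no excess or lack. The other genes of the JAK2 group were named for intergenic peaks, each of which can name up to 4 genes. The relaxin family genes RLN2, INSL4 and INSL6 encode insulin-like peptide hormones. RLN2 had the peak with the most tags of the segment in replicate 1, a TAGA repeat in its promoter region (5306972 to 5307641) with 231 tags and a fold of 74.2 at a local background of 5.09. Replicate 2 split this place in 2: 58 tags at a fold of 38.8 in the promoter region (5306964 to 5307212) and 114 tags at 61.9 in sequence classed as intergenic (5307235 to 5307598). An intron of INSL6 held 2 shared regions. The first, on an AluSz element (5165092 to 5165214), had 18 and 9 tags, and the second, on L1MB7 (5165291 to 5165369), had 24 and 15.

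CD274 and PDCD1LG2 encode PD-L1 and PD-L2, the ligands of the inhibitory receptor PD-1 of T cells. CD274 had a single peak, in its promoter region in replicate 1 (5448347 to 5448413, 11 tags, fold 25.7), and none listed in replicate 2. PDCD1LG2 had a shared region in an intron (5557224 to 5557340) with 20 tags at a fold of 29.7 in replicate 1, and with 19 tags at 27.2 in replicate 2. IL33, the gene of an alarmin cytokine, was named for 4 intergenic peaks in replicate 1 and 3 in replicate 2. Their tags ran from 6 to 16 in replicate 1 and from 10 to 11 in replicate 2. Of these, 3 regions were shared, and their replicate 2 folds of 17.8, 26.5 and 24.3 lay around the median of the segment.

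Of the 4 chromatin regulators, KDM4C alone had a peak in the gene in both lists, 12 in replicate 1 and 8 in replicate 2, merged into 6 shared regions. Its peaks in the gene held 7 to 31 tags in replicate 1 and 5 to 31 in replicate 2. Of the shared regions, 4 lay within 532 bp of 1 intron (6926820 to 6927351), around a TCTA repeat with 31 tags in each replicate. UHRF2, a ubiquitin ligase gene, had 1 peak of 6 tags in exon 9 of 16 in replicate 1 only. SMARCA2, the gene of a SWI/SNF ATPase, was named for 1 intergenic peak of 5 tags in replicate 2. PSIP1, which encodes the chromatin tether LEDGF, was named for none.

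Among the genes of adhesion, scaffolds and matrix, 7 of 8 had a peak in the gene in replicate 1 and 5 of 8 in replicate 2. No share over all genes of the segment stands beside these counts. PTPRD, a receptor tyrosine phosphatase and a very long gene, led the segment with 34 peaks in replicate 1 and 21 in replicate 2, merged into 16 shared regions, of which 5 lay on tandem repeats. Its peaks in the gene held 5 to 43 tags in replicate 1, with folds between 15.7 and 82.9. CNTLN had 6 and 7 peaks and 5 shared regions. KDM4C, PTPRD and CNTLN were the 3 genes with 5 or more shared regions in the gene, and gene length was not taken into account. MPDZ, which encodes a scaffold with many PDZ domains, had 2 and 0 peaks in the gene but 11 and 6 beside it, and all 6 of its shared regions were intergenic.

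The list of transcription factors held 9 genes, among them CER1, which encodes a secreted signalling antagonist and is no transcription factor. Of these 9, 4 had a peak in the gene in each replicate and 3 had a shared region there. BNC2, a zinc finger gene, had 6 peaks in replicate 1 and 5 in replicate 2, with 4 shared regions led by a TA repeat (16498077 to 16498296) of 52 and 47 tags and folds of 43.6 and 40.1. NFIB, a nuclear factor I gene, had 5 and 1 peaks and 1 shared region, with 15 and 10 tags. GLIS3, a Krüppel-like zinc finger gene, had 2 and 3 peaks and 5 and 5 beside it. DMRT1, DMRT2, DMRT3 and CER1 were named for none.

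Of 11 genes of metabolism, transport and membranes, 6 had a peak in the gene in replicate 1 and 4 in replicate 2, and 5 were named for none, VLDLR, KCNV2, TYRP1, PLIN2 and ACER2. GLDC, which encodes glycine decarboxylase, had a TATG repeat in an intron (6585817 to 6585925) at folds of 63.2 and 86.9, with 16 and 20 tags. Of 11 genes of growth and translation, 5 had a peak in the gene in replicate 1 and 1 in replicate 2. RPS6, the gene of a small-subunit ribosomal protein, RRAGA, HAUS6 and CDC37L1 were named for none. The lists start at 5 tags, so weaker occupancy at a gene named for no peak was not detectable here.

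Promoter and exon peaks were few. Those in exons held 5 to 11 tags. Those in promoters held 7 to 231 tags in replicate 1 and 5 to 58 in replicate 2, against a segment median of 10 in both. Apart from RLN2, shared promoter regions lay at LOC389705 (14991433 to 14991561), with 29 and 20 tags and folds of 32.7 and 19.2, and at FAM154A, a gene now called SAXO1 (19035032 to 19035148), with 17 and 9 tags and folds of 28.5 and 17.9. FAM154A had a further peak of 10 tags on a THE1A element in replicate 1. KDM4C had a promoter peak of 7 tags in replicate 1, and VLDLR-AS1, ERMP1 and PTPRD-AS1 had promoter peaks of 6, 8 and 5 tags in replicate 2. In exons, replicate 1 had GLDC (exon 23 of 25, 5 tags) besides UHRF2. Replicate 2 had SPATA6L (11 tags), RLN2 (exon 3 of 3, 7 tags) and DENND4C (exon 12 of 32, 5 tags). The SPATA6L place was also found in replicate 1, where its peak had 21 tags and was classed as intronic, on an L1ME4a element.

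The peaks next to the 20 Mb boundary were as follows. The last replicate 1 peak inside (19981080 to 19981114) had 6 tags and a fold of 38.6, and the first outside (20078591 to 20078644) had 5 tags and a fold of 30. In replicate 2 the last inside, near SLC24A2 (19877654 to 19877702), had 6 tags and a fold of 29.2, and the first outside, near MLLT3 (20258597 to 20258666), had 12 tags and a fold of 52.5, followed by one (20258682 to 20258916) with 55 tags and a fold of 88.5. Their local background, where it could be worked out, was 1.80 outside in replicate 1, and 1.86 inside and 2.07 outside in replicate 2, so the raised local background went on past the boundary.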

How the data were processed

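YBX1 occupancy was measured by ChIP-seq in 2 replicates against 1 input library. Per the submitters' processing notes, reads passed bcl2fastq 02.14.01.07, Trimmomatic 0.36 and Bowtie2 on hg19. Per the file headers, MACS 1.4.2 was run for each replicate against the input with a p-value cutoff of 1e-05, a fragment shift of 20 bp, 1 tag kept per position, the larger library scaled down, and input backgrounds over 1000 bp and 10000 bp. The shift is shorter than the 36 bp tag, so widths and summit heights do not measure the extent of binding. The authors then filtered and annotated the lists by a rule not given in the sources used here. The deposited values are the tag count of a peak, its score (negative log10 of the p-value times 10), its fold enrichment as a ratio, its false discovery rate in percent, and its width and summit in base pairs. The replicate 2 header names its alignment with another number than the label, and the label was followed.

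The local background was found as the Poisson mean whose chance of more tags than listed equals the deposited p-value, over the peak's width (at least 40 bp, at most 1000 bp), divided by the genome-wide rate. On 1683 peaks simulated with this same formula it came within 1% of the set value for 100% of them. That checks the inversion only, and not whether the caller computed its p-values in this way. Python 3.11.15, pandas 2.3.3 and scipy 1.17.1 were used. Shares carry 95% Wilson intervals. Means are over 2 replicates with their SD. No significance test was made, because the segment was chosen on these lists. The segment and the gene lists were chosen with earlier results of these data known. Named were all JAK2, promoter and exon peaks, the 10 strongest shared regions, genes with 5 or more shared regions in the gene, the listed genes, and the peaks next to 20 Mb. Of 53 gene symbols on the segment, 45 were current and 7 matched older names in a RefSeq table of GRCh38, used for names and promoter sequences. Alternatives tried are a stricter p, an end at 10 Mb, tandem repeats left out, other overlaps, and each replicate alone.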

Additional observations from a re-analysis of the deposited data

How the results depend on the processing

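The ratio of local backgrounds lay between 3.15 and 3.70 under the alternatives run, while density, repeat share and overlap moved. With p of at most 1e-10, the density ratio to the rest of chromosome 9 was 1.04 and that to other chromosomes turned to 0.986, the tandem repeat share was 41.4%, the intergenic share 59.7%, the share found in the other replicate 95%, the median tags 26.8 and the median fold 35.4. With an end at 10 Mb, the density ratios were 1.44 and 1.28, the intergenic share 43.1%, the median tags 9.5, the median fold 22.8 and the local background ratio 3.15. With tandem repeats left out, the density ratios were 4.22 and 2.57, the median tags 8.5 and the median fold 20.2. With empty bins of the rest kept, the density ratio was 2.07, and for shared regions alone 1.43. The share of segment peaks found in the other replicate averaged 60.5% in the main setting. It was 48.3% when an overlap of 50% of both peaks was asked for, and 87.7% among peaks with 10 or more tags. No share of other peaks under these settings or the stricter p is given beside them. The causes of these moves were not tested. Each replicate alone gave density ratios from 1.61 to 1.68 and local background ratios from 3.56 to 3.68. The alternatives for the ratio to other chromosomes were added after seeing the data. No paired analysis was possible because both replicates belong to the same group and the only other sample is the input. Peaks rest on few tags and both lists share 1 input, which limits what they show independently.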

Other observations

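Peaks between 20 and 30 Mb belong to neither side of the comparison. The raised local background went on past the segment: its median was 2.08 from 20 to 25 Mb in both replicates, with 10 peaks in replicate 1 and 4 in replicate 2. From 25 to 27 Mb it was 3.75 in replicate 1 and 3.85 in replicate 2, with 34 and 21 peaks, or 17 and 10.5 per Mb, of which 6 and 7 lay on tandem repeats. From 27 to 30 Mb it was 1.00 in both, with 13 and 10 peaks, and 12 and 9 of these lay at the genome-wide background. The median fold was 20.6 and 25.2 from 25 to 27 Mb, against 53.9 and 61.2 from 27 to 30 Mb.

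Several shared regions of the segment came in rows. At 20 places 2 or more lay within 500 bp of each other, 48 of the 108 regions in all. Places with 3 or more lay near SLC1A1 and MPDZ and in introns of KDM4C, PTPRD (2 places), BNC2 and CNTLN. By the replicate 1 labels, all but the MPDZ place (13066499 to 13066949) held 1 tandem repeat with regions of other labels beside it. The MPDZ place held none, with 16 to 34 tags in replicate 1 and 12 to 29 in replicate 2.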
